A study of Mus musculus with 7 samples.

Results

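The FOXO transcription factors Foxo1, Foxo3, Foxo4 and Foxo6 were followed with Txnip, Irs1, Irs2 and Klf9 in single nuclei of mouse small cell lung tumors. The genes were picked by symbol, and all 8 were present among the 56941 genes of the count table of every animal. Earlier results of the comparison of genotypes in tumor nuclei were known when the genes were picked, so their difference in those nuclei is given as a description without a test. All 8 passed the filter on low counts in tumor-like nuclei, 5 passed it in macrophage-like nuclei and 4 in endothelial-like nuclei.

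The nuclei came from endpoint lung tumors of 4 male mice, fresh-frozen before nuclei were isolated. The 2 RP animals (RP1 and RP2) carried Rb1 fl/fl and Trp53 fl/fl alleles, and the 2 RPC animals (RPC1 and RPC2) carried the same alleles and a loss of Casp8, which the labels write as Casp8-/- and the methods of the study describe as a conditional allele. All 4 animals inhaled an adenovirus that expresses Cre recombinase as young adults, aged 8 to 12 weeks. The virus drove Cre from the CMV promoter, which is active in many cell types, so the deletions were not restricted to 1 lung cell type and non-tumor nuclei may or may not carry them. Caspase 8 starts extrinsic apoptosis and restrains necroptosis. Nuclei were barcoded by split-pool indexing, in which the first barcoding well marks the animal, and were divided over 7 sublibraries that each pooled all 4 animals. The animal was therefore the replicate, with 2 per genotype. P-values of the genotype comparisons below set a difference against the spread between these animals. Where groups of nuclei were compared within animals, the animal was a block. Those p-values set a difference against how much it varied from animal to animal.

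FOXO proteins are forkhead transcription factors at the end of the insulin and growth factor pathway. Active insulin receptors recruit the adaptors IRS1 and IRS2, which pass the signal through PI3-kinase to AKT, and AKT phosphorylates FOXO proteins and keeps them out of the nucleus. In the nucleus, FOXO proteins activate genes of cell cycle arrest, stress resistance and metabolism, and Irs2 is among the genes they activate. TXNIP binds thioredoxin and limits glucose uptake, and KLF9 is a zinc finger factor induced by glucocorticoids. Because FOXO proteins are controlled mainly by phosphorylation and location, the level of a FOXO transcript does not report the activity of its protein.

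On GRCm39, Foxo1 (ENSMUSG00000044167) lies on the plus strand at chr3:52175757-52260642 and Foxo3 (ENSMUSG00000048756) on the minus strand at chr10:42057837-42154007. Foxo4 (ENSMUSG00000042903) lies on the plus strand at chrX:100298073-100304479 and Foxo6 (ENSMUSG00000052135) on the minus strand at chr4:120124276-120147792. Txnip (ENSMUSG00000038393) lies on the plus strand at chr3:96465267-96469201 and Klf9 (ENSMUSG00000033863) on the plus strand at chr19:23118187-23148497. Irs1 (ENSMUSG00000055980) lies on the minus strand at chr1:82210822-82269338 and Irs2 (ENSMUSG00000038894) on the minus strand at chr8:11034681-11059499. The annotation places antisense genes across Foxo1, Foxo3, Txnip, Irs1, Irs2 and Klf9, and the sources do not say whether the counting used the strand. Gm15441, which runs antisense across Txnip, had 100, 101, 387 and 319 transcripts in tumor-like nuclei (RP1 and RP2, then RPC1 and RPC2), against 1750, 1801, 11012 and 9537 transcripts counted for Txnip itself.

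Promoter sequences are shown because those of 4 members hold letters that FOXO proteins or E-box factors recognise. The RefSeq promoter table (GRCm38.p6, 250 bases before to 50 bases after each start) held 6 of the 8 members, Foxo4 and Foxo6 being the exceptions, and each of these 6 sequences was found once in GRCm39 by exact match. Searched on both strands were the FOXO site GTAAACA, which reads TGTTTAC on the other strand, and the E-box CACGTG, which reads the same on both. A further search was made for TTGTTTTG, typical of insulin response elements, which reads CAAAACAA on the other strand. The FOXO site is held by 1199 of all 32851 promoters of the table (3.65%), the E-box by 2349 (7.15%) and TTGTTTTG by 825 (2.51%). Txnip has GTAAACA 121 bases before its RefSeq start, in the stretch of 244 bases ahead of the annotated gene at chr3:96465023-96465266, plus strand, with the motif in capitals:
Txnip promoter: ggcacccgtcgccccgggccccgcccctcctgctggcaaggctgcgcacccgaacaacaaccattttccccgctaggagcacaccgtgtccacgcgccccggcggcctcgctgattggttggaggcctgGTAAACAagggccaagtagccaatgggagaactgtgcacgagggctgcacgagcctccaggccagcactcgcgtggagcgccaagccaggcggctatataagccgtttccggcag

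Klf9 has the same letters 100 bases before its RefSeq start, and Irs1 and Irs2 each hold both other motifs ahead of theirs. These sites lie inside the extent that GENCODE gives the genes, so only 30 bases around each are shown, in the direction of the gene and with the motif in capitals. They lie at chr19:23118479-23118508 (Klf9), chr1:82269258-82269287 and chr1:82269175-82269204 (Irs1), and chr8:11058956-11058985 (Irs2).
Klf9 FOXO site: agggggagaaaGTAAACAgagttgaatcac
Irs1 E-box: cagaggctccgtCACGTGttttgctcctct
Irs1 insulin response letters: gcagccgccgcTTGTTTTGgttggggctct
Irs2 E-box and insulin response letters: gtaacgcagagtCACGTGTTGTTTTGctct

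In Irs2 the E-box ends where TTGTTTTG begins, so the capitals form 1 run, whereas in Irs1 the motifs stand apart, 115 and 33 bases before the start. The windows of Foxo1 and Foxo3 held none of these letters. A match is a description of the sequence, and binding was not measured.

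In the order RP1, RP2, RPC1, RPC2 the deposited matrices held 32299909, 35420582, 72446861 and 57515082 transcripts, so both RPC animals were deeper, and no barcode was shared between animals. After filtering, 7123, 7223, 9190 and 8598 nuclei were tumor-like by neuroendocrine markers, with a median of 2342, 2283, 3339 and 2869.5 transcripts. The ribosomal transcript Rn18s-rs5 took 9.99%, 8.49%, 3.09% and 5.35% of the counts in the same order. Casp8 was not lower in RPC tumor-like nuclei (57.0, 60.5, 91.6 and 66.9 CPM, counts per 1000000 summed transcripts), and neither were Rb1 (309, 334, 396 and 436 CPM) and Trp53 (12.8, 12.6, 18.7 and 12.7 CPM). Counts over whole genes do not resolve the deleted exons, so these values check no label. In the tumor-like nuclei, the summed markers of club cells (24.2 and 45.0 CPM in RP, 97.6 and 77.4 CPM in RPC) and ciliated cells (53.0 and 58.0 against 97.7 and 78.9 CPM) were higher in both RPC animals, with 4 of 8 and 5 of 8 markers higher without overlap, none lower, and no marker at 0 throughout. Alveolar type 2 markers were also higher (106 and 132 against 142 and 135 CPM, 2 of 8 markers higher), and markers of fibroblasts (39.0 and 63.9 against 32.1 and 28.2 CPM, 3 of 8 lower and 1 higher), smooth muscle or pericytes (21.7 and 14.2 against 13.0 and 11.1 CPM, 3 of 9 lower and 1 higher) and mesothelium (3.26 and 3.74 against 2.75 and 3.12 CPM, 3 of 6 lower and 2 higher) were lower. The summed neuroendocrine markers were higher in both RPC animals (4705 and 4280 against 5240 and 5572 CPM, 7 of 14 markers higher and 1 lower). Of all genes tested in these nuclei, 24.8% were higher and 25.6% lower without overlap, after the scaling given below. The part of all these markers in the values below was not tested.

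Within the FOXO family, the tumor-like nuclei of RPC had more Foxo1, less Foxo6 and Foxo4, and about as much Foxo3. Outside the family, Txnip, Irs2 and Klf9 were higher and Irs1 was lower in both RPC animals. Values are CPM of counts summed per animal with TMM scaling (normalised CPM), in the order RP1, RP2, RPC1 and RPC2, and log2 fold changes are RPC over RP with the SE of the edgeR fit. Since this contrast chose the members, none of these differences is tested here.

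Foxo1, the family member best known for control of metabolism and of stem cell states, had 154, 136, 379 and 233 normalised CPM. Both RPC animals lay above both RP animals, 2.11-fold on average (log2 fold change 1.08, SE 0.26), and RPC1 lay far above RPC2. Without RPC1 the log2 fold change was 0.69, and without RPC2 it was 1.41. Foxo3, whose protein recognises the same DNA letters as FOXO1, had 166, 158, 162 and 135 normalised CPM, and the genotypes overlapped (log2 fold change -0.13, SE 0.15). Foxo4, located on the X chromosome, was scarce at 6.67, 6.64, 4.90 and 4.31 normalised CPM (log2 fold change -0.53, SE 0.26), from 178 to 267 transcripts per animal. Foxo6, a member that is expressed mainly in the nervous system, had 24.2, 14.8, 9.12 and 10.7 normalised CPM (log2 fold change -0.98, SE 0.30), a 1.97-fold lower mean in RPC. RP1 held the highest Foxo6 value, and without RP1 the log2 fold change was -0.58, whereas it was -1.28 without RP2.

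Txnip had 65.6, 66.0, 202 and 207 normalised CPM. The animals of each genotype lay close together and the genotypes stood 3.10-fold apart (log2 fold change 1.63, SE 0.13), a value that stayed between 1.63 and 1.66 when each animal was left out. The adaptor Irs2 had 54.1, 65.3, 78.8 and 99.4 normalised CPM (log2 fold change 0.58, SE 0.19), while the related adaptor Irs1 had 47.2, 39.2, 30.8 and 31.4 normalised CPM (log2 fold change -0.48, SE 0.17). The adaptors therefore differed in opposite directions, each without overlap. Klf9 had 14.1, 25.8, 31.4 and 40.7 normalised CPM (log2 fold change 0.85, SE 0.33). Its RP animals lay far apart, and the log2 fold change was 0.49 without RP1 and 1.36 without RP2.

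**Figure D1:**
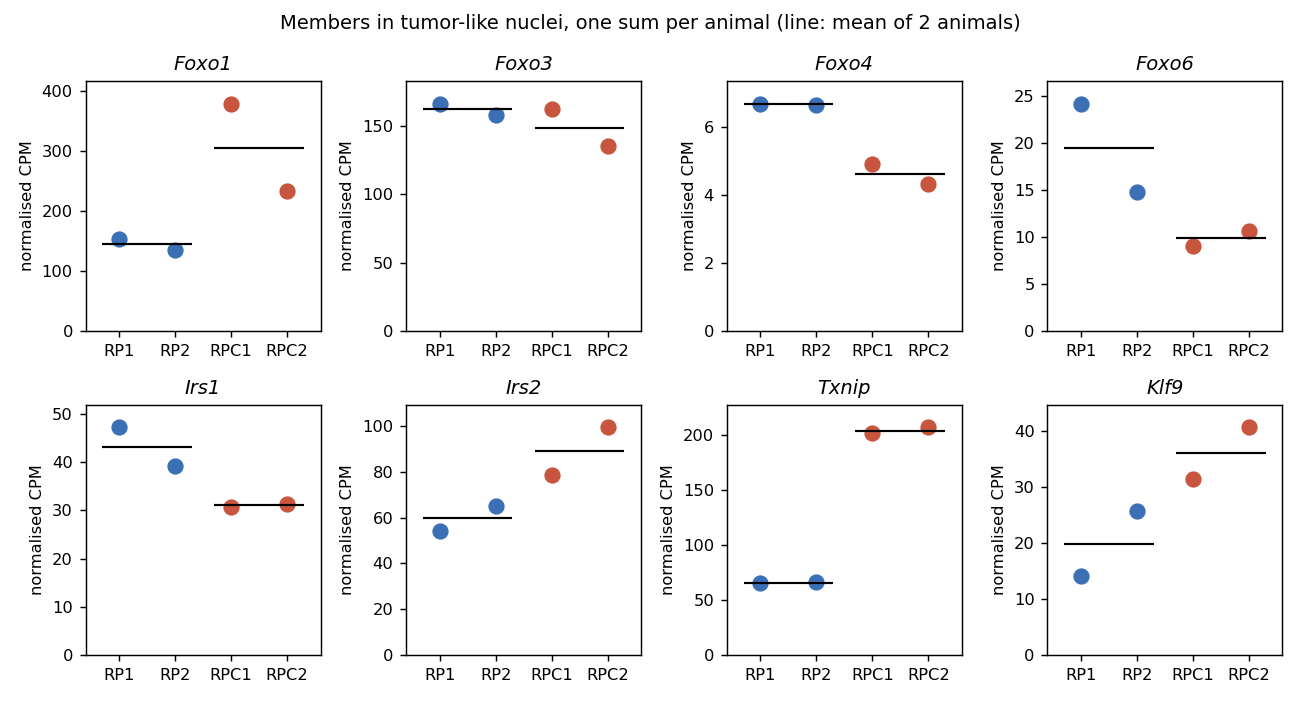
Normalised CPM of each member in tumor-like nuclei (y axis, from 0), one point per animal (RP blue, RPC red), with a line at the mean of the 2 animals of a genotype. Foxo1, Irs2, Txnip and Klf9 lie higher in both RPC animals, Foxo4, Foxo6 and Irs1 lie lower in both, and Foxo3 overlaps.

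In all, 4 members were higher and 3 lower in RPC without overlap. Of all 20113 genes tested in tumor-like nuclei, 24.8% had both RPC animals above both RP animals and 25.6% had both below, so absence of overlap was common at this sample size. The edgeR quasi-likelihood test with Benjamini-Hochberg adjustment called 0 genes (0%; smallest adjusted p 0.152, with 3054 genes at an unadjusted p under 0.05), and DESeq2 called 654.

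The differences were also read in the technical units of the barcoding, which are not replicates of a genotype. Wells are parts of the same 4 animals, so their separation adds no evidence to that between animals. The share of all genes whose wells separate was not counted. By animal, 24.8% of all genes were higher and 25.6% lower in RPC without overlap. Every one of the 5 RPC wells exceeded every one of the 4 RP wells for Foxo1 (222 to 416 against 126 to 160 CPM) and Txnip (179 to 256 against 47.9 to 79.9 CPM). The same held for Irs2 (73.1 to 104 against 47.4 to 67.4 CPM) and Klf9 (32.0 to 45.4 against 10.9 to 26.2 CPM). Wells of RPC lay below all RP wells for Irs1 (30.8 to 32.9 against 37.6 to 49.5 CPM), Foxo6 (7.97 to 12.7 against 13.0 to 25.2 CPM) and Foxo4 (3.23 to 5.53 against 5.63 to 7.68 CPM). Foxo3 wells overlapped, at 134 to 174 CPM in RPC and 142 to 170 CPM in RP. Across the 7 sublibraries of an animal the spread was narrow, for example 381 to 400 CPM of Foxo1 in RPC1 and 225 to 242 CPM in RPC2. The distance between the RPC animals in Foxo1 was therefore present in each sublibrary.

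The share of tumor-like nuclei with at least 1 transcript followed the summed levels. To remove differences in depth, each nucleus was thinned to 1000 transcripts, which left out 794, 741, 147 and 366 shallower nuclei. Foxo1 was then detected in 13.4% of RP1 nuclei (95% exact binomial interval 12.6 to 14.3), 12.5% of RP2 (11.7 to 13.4), 30.4% of RPC1 (29.5 to 31.4) and 19.3% of RPC2 (18.4 to 20.2). Txnip was detected in 5.96% (5.39 to 6.57), 5.65% (5.10 to 6.24), 17.5% (16.8 to 18.3) and 17.8% (17.0 to 18.6). These intervals cover counting error only. Without thinning, Foxo1 was detected in 35.2%, 32.8%, 66.3% and 49.1% and Txnip in 19.1%, 18.6%, 50.6% and 44.8% of the same nuclei. Foxo6 was detected after thinning in 2.39%, 1.40%, 1.09% and 1.14% of tumor-like nuclei. In macrophage-like nuclei, which serve as a background for this neuronal gene, it was found in 0 of 86, 0 of 157, 0 of 107 and 0 of 96 nuclei, where a count of 0 leaves upper 95% exact binomial limits of 4.20%, 2.32%, 3.39% and 3.77%. After thinning, these nuclei thus did not allow a background below the tumor-like share to be shown. Without thinning, where depth differs, Foxo6 was found in 1 of 86, 0 of 157, 0 of 107 and 1 of 96 macrophage-like nuclei. The upper limits were 6.31%, 2.32%, 3.39% and 5.67%. The tumor-like shares were 8.48%, 5.38%, 4.94% and 5.21%, above these limits in RP1, RP2 and RPC1 but not in RPC2.

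Foxo1 and Txnip were not found together more often than apart in most animals. After thinning, Txnip was present in 6.49% of RP1 nuclei with Foxo1 and 5.87% of those without, in 18.1% and 17.3% in RPC1, and in 17.3% and 17.9% in RPC2, each with overlapping intervals. In RP2 the shares were 7.76% (6.01 to 9.82) and 5.34% (4.77 to 5.96). These shares were not tested.

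Tumor-like nuclei formed clusters that mostly came from 1 or 2 animals, so a comparison within clusters was limited. A single cluster held at least 50 nuclei of each animal (1009, 4312, 91 and 347). In it, Foxo1 had 201, 152, 347 and 333 CPM and Txnip had 72.9, 71.7, 291 and 174 CPM. Klf9 (19.1, 25.4, 39.8 and 54.8 CPM) and Irs2 (51.3, 70.6, 99.6 and 89.6 CPM) were also higher in both RPC animals there. Foxo3 (178, 178, 159 and 179 CPM), Irs1 (30.1, 34.1, 31.9 and 24.1 CPM) and Foxo6 (21.2, 13.6, 15.9 and 10.7 CPM) overlapped in this cluster, where Foxo6 rested on only 4 transcripts in RPC1 and 8 in RPC2. Over all tumor-like clusters with at least 50 nuclei in the animal, Txnip ranged from 54.3 to 77.4 CPM in RP1 (7 clusters), from 37.0 to 105 CPM in RP2 (5), from 166 to 291 CPM in RPC1 (5) and from 148 to 629 CPM in RPC2 (6). The RP and RPC ranges of Txnip thus did not meet in any of these clusters, while those of Foxo1 did, at 117 to 201 and 81.6 to 211 CPM in RP and 258 to 416 and 150 to 333 CPM in RPC.

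The genotypes were also compared in non-tumor nuclei. These came from the same 4 animals and carried transcripts of neuroendocrine markers, so the values are not independent of the tumor-like nuclei through which the members were chosen. In endothelial-like nuclei the summed neuroendocrine markers were higher in both RPC animals (1803 and 1376 CPM in RP, 2583 and 2219 CPM in RPC), and in macrophage-like nuclei they overlapped (1836 and 813 CPM in RP, 845 and 1329 CPM in RPC). Their part in the values of the members was not tested. In endothelial-like nuclei (63, 96, 66 and 104), Txnip, Klf9 and Foxo3 lay higher in both RPC animals and Foxo1 overlapped, and none of these passed the test. Txnip had 145, 119, 292 and 292 normalised CPM (log2 fold change 1.15, SE 0.29, edgeR adjusted p 0.359). Klf9 had 79.4, 79.1, 166 and 157 normalised CPM (1.03, SE 0.34, edgeR adjusted p 0.398). Foxo3 had 99.2, 147, 264 and 225 normalised CPM (0.98, SE 0.32, edgeR adjusted p 0.398). For Foxo1, a gene needed for the growth of vessels, the values were 344, 339, 369 and 281 normalised CPM (-0.06, SE 0.27, edgeR adjusted p 0.969). The deep sub-clusters that had been set aside were added as an alternative chosen after seeing the data. Foxo3 was then 0.17 (edgeR adjusted p 0.815) and Foxo1 turned to 0.55 (edgeR adjusted p 0.416). Neuroendocrine markers reached 84.3% to 89.6% of the tumor-like level in the deep nuclei, against 32.1% to 49.3% without them. The former range covers RP2 and RPC2, which held at least 50 deep nuclei. Without the deep sub-clusters the values rest on few transcripts, from 21 to 72 per animal for Txnip and from 50 to 91 for Foxo1. No overlap with RPC higher was seen for 3 of the 4 members tested, against 20.8% of all 4575 genes (21.1% with RPC lower). edgeR called 0 of these genes (0%; 451 at an unadjusted p under 0.05), and DESeq2 called 9.

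In macrophage- or monocyte-like nuclei (102, 189, 109 and 109), Txnip had 107, 96.9, 148 and 245 normalised CPM (log2 fold change 0.93, SE 0.33, edgeR adjusted p 0.538). Klf9 had 39.4, 40.8, 45.9 and 89.7 normalised CPM (0.70, SE 0.44, edgeR adjusted p 0.669). For both, the RPC animals lay above the RP animals, and RPC2 lay above RPC1. Without RPC2 the log2 fold change was 0.54 for Txnip and 0.20 for Klf9. Foxo1 had 125, 84.1, 123 and 124 normalised CPM (0.26, SE 0.31, edgeR adjusted p 0.845) and Irs2 had 42.9, 48.4, 66.7 and 41.4 (0.27, SE 0.40, edgeR adjusted p 0.873), both with overlap. Foxo3 had 265, 235, 207 and 231 normalised CPM (-0.19, SE 0.23, edgeR adjusted p 0.845), lower in both RPC animals with TMM scaling but overlapping on plain CPM (239, 204, 203 and 218). With the deep sub-clusters, Foxo1 was 0.93, Txnip 1.48 and Klf9 1.12, with edgeR adjusted p of 0.292, 0.213 and 0.331. Neuroendocrine markers reached 71.6% to 86.8% of the tumor-like level in these deep nuclei, against 16.1% to 39.0% in the class without them. Their part in these values was not tested. With TMM scaling, absence of overlap was seen with RPC higher for 2 and with RPC lower for 1 of the 5 members tested, against 20.6% and 20.1% of all 6679 genes. edgeR called 0 of these genes (0%; 572 at an unadjusted p under 0.05), and DESeq2 called 6. A p above the threshold with 2 animals per genotype does not show that the levels were equal.

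**Figure D2:**
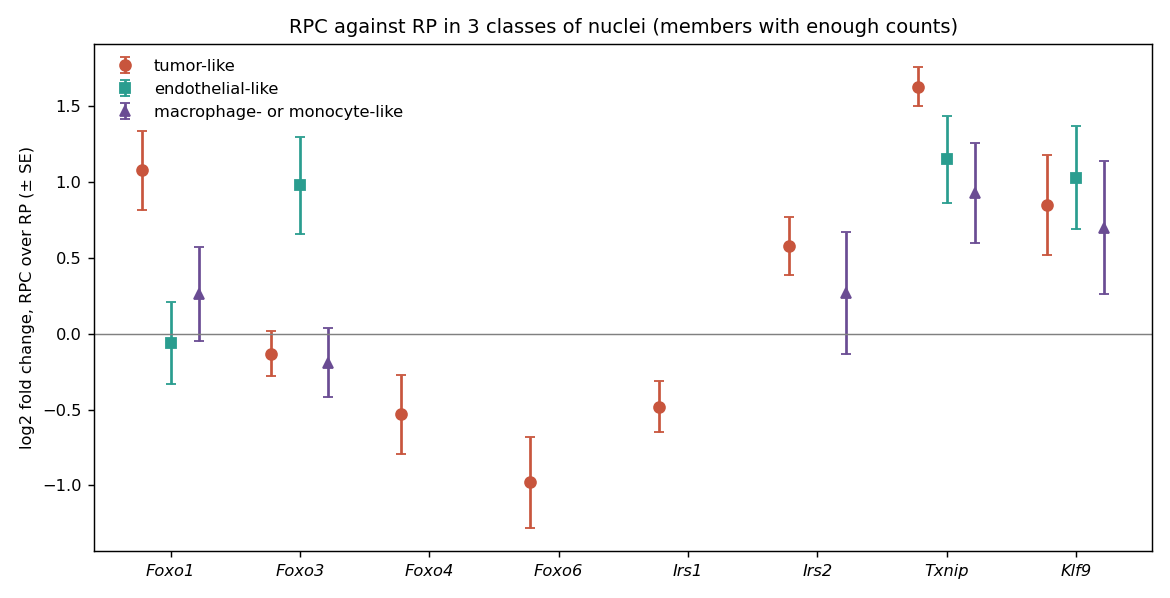
Log2 fold change of RPC over RP (y axis) with the SE of the edgeR fit for members that passed the filter in tumor-like (circles), endothelial-like (squares) and macrophage- or monocyte-like nuclei (triangles). Txnip and Klf9 lie above 0 in all 3 classes, and Foxo1 lies at 1.08 in tumor-like nuclei but at -0.06 in endothelial-like nuclei.

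Levels by class were read as plain CPM for classes with at least 50 nuclei in an animal. Txnip was higher in both RPC animals in each of the 4 named classes that reached 50 nuclei in every animal, and so was Klf9. These were the tumor-like, endothelial-like, macrophage- or monocyte-like, and smooth muscle- or pericyte-like classes. Foxo1 was higher without overlap in 3 of these 4 classes on plain CPM. One of them was the macrophage-like class (113 and 73.1 CPM in RP, 121 and 117 CPM in RPC), whose animals overlapped with TMM scaling, and the exception was the endothelial-like class. Foxo3 and Irs2 were each higher without overlap in 1 of the 4 classes. Foxo4, Foxo6 and Irs1 were each lower without overlap in 2 of them. The share of all genes that separate in as many classes was not counted. In smooth muscle- or pericyte-like nuclei, Txnip had 44.9, 64.3, 191 and 226 CPM, Foxo1 had 141, 101, 353 and 216 CPM and Klf9 had 88.5, 65.4, 106 and 115 CPM. The Foxo1 and Txnip values of this class lay close to those of the tumor-like nuclei of the same animal. Summed neuroendocrine markers reached 63.5% to 81.4% of the tumor-like level in this class, 32.1% to 49.3% in endothelial-like nuclei and 16.1% to 39.0% in macrophage-like nuclei. In the smooth muscle- or pericyte-like class they were 63.5% and 69.4% in RP and 74.5% and 81.4% in RPC, and thus higher in the genotype in which Foxo1, Txnip and Klf9 were higher. Transcripts of neuroendocrine markers were thus counted in these barcodes, and their part in the levels of Foxo1, Txnip and Klf9 was not tested.

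Epithelial and lymphoid classes held at least 50 nuclei in some animals only, and animals with fewer are not given. In club-like nuclei, where neuroendocrine markers reached 13.9% to 17.2% of the tumor-like level, Txnip had 149 CPM in RP2, 284 CPM in RPC1 and 323 CPM in RPC2. Foxo1 had 125, 235 and 108 CPM and Klf9 had 141, 250 and 159 CPM in the same nuclei, so that Klf9 was several times its tumor-like level. In alveolar type 2-like nuclei, Txnip had 144 CPM in RP2 and 514 CPM in RPC2, while Foxo1 had 247 CPM (188 to 317) and 216 CPM (158 to 290). Foxo3 lay far above its tumor-like levels of 157 CPM in RP2 and 136 CPM in RPC2 in epithelial nuclei, with 773 CPM in RP2 and 553 CPM in RPC2 alveolar type 2-like nuclei and 452 to 646 CPM in club-like nuclei. The highest Foxo1 level of any named class and animal given was that of RP1 B cell-like nuclei, at 516 CPM (95% interval 385 to 676). This class held 69 nuclei in RP1 and 167 over all animals, with fewer than 50 in each of the others. FOXO1 is a factor of B cell development. Klf9 had 0 transcripts there (up to 36.6 CPM). In T or NK cell-like nuclei of RP1 and RP2 it had 10.4 and 13.2 CPM, from only 3 and 2 transcripts. Neuroendocrine markers reached 82.7% and 69.2% of the tumor-like level in these T or NK cell-like nuclei. They reached 32.2% in B cell-like, 24.4% to 27.1% in alveolar type 2-like and 45.7% to 60.6% in alveolar type 1-like nuclei. Their part in the levels of the members was not tested.

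**Figure D3:**
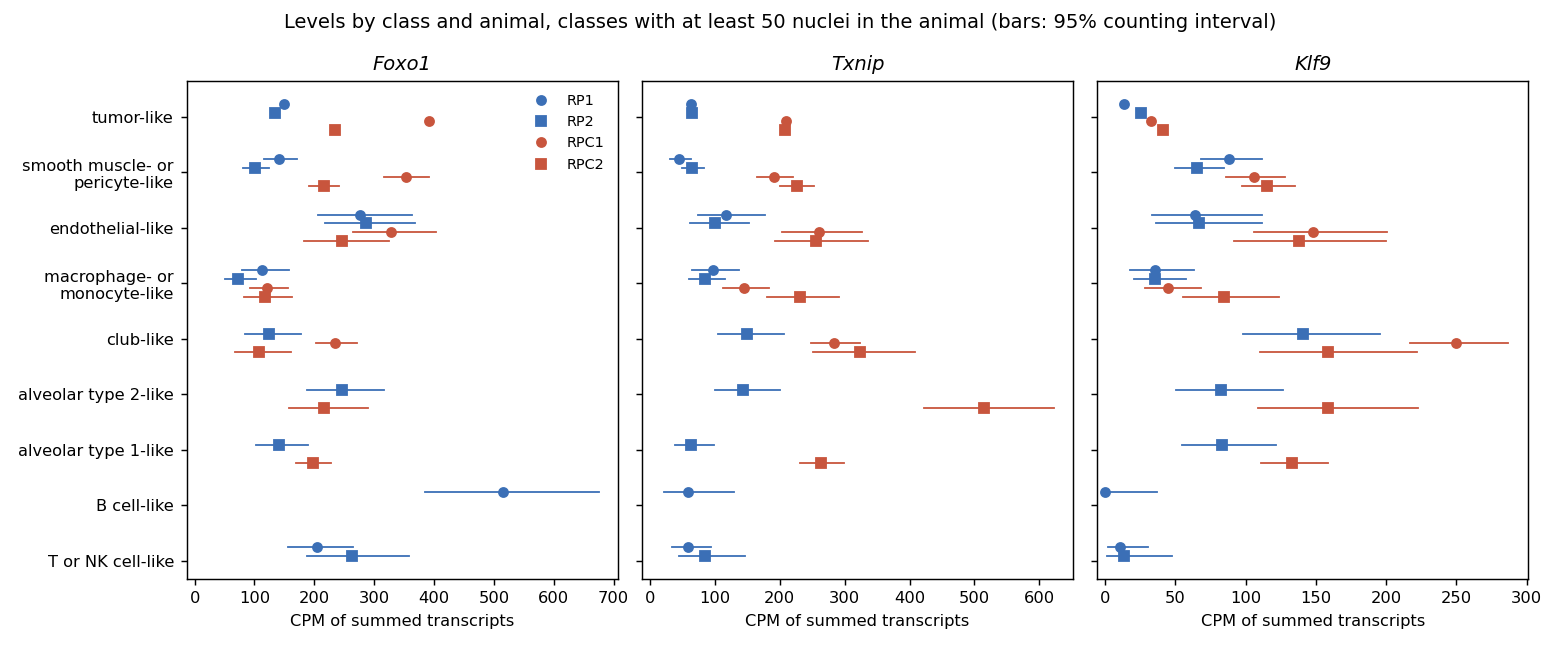
Plain CPM of Foxo1, Txnip and Klf9 (x axes) by class of nuclei and animal (RP blue, RPC red, circles for animal 1 and squares for animal 2), with 95% counting intervals; classes under 50 nuclei in an animal are left out. Txnip lies further right in RPC than in RP in every class that has both genotypes. Foxo1 intervals of RP and RPC animals overlap in endothelial-like, macrophage- or monocyte-like and both alveolar classes. In club-like nuclei the Foxo1 interval of RP2 overlaps that of RPC2 but not that of RPC1.

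The next comparison asked whether the members differ with proliferation inside a tumor. Tumor-like nuclei were called mitosis-gene-high when, thinned to 1000 transcripts, they held at least 2 transcripts of 18 mitosis genes such as Mki67 and Top2a. This class held 53.2%, 45.6%, 54.5% and 63.0% of the nuclei of RP1, RP2, RPC1 and RPC2. It is a range of a score rather than a cell type, and 749 to 1367 nuclei per animal lay exactly at the limit of 2 with 1311 to 1962 just below it. Mitosis-gene-high nuclei were deeper before thinning in each animal (median 2829.5 to 3948 transcripts against 2200 to 2955 in the others), and the part of depth was not tested.

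Foxo1, Foxo3 and Txnip fell in mitosis-gene-high nuclei and Irs1 rose, in 4 of 4 animals each. Foxo1 went from 177 to 142 normalised CPM in RP1, from 144 to 127 in RP2, from 409 to 363 in RPC1 and from 263 to 222 in RPC2 (log2 fold change -0.22, SE 0.036, edgeR adjusted p 0.000319). Foxo3 went from 176 to 160, from 176 to 141, from 183 to 151 and from 153 to 128 normalised CPM in the same order (-0.25, SE 0.038, edgeR adjusted p 0.000179). Txnip went from 71.1 to 62.2, from 69.9 to 61.3, from 228 to 189 and from 237 to 197 normalised CPM (-0.24, SE 0.037, edgeR adjusted p 0.000217). Foxo1 thus fell by 14.3%, Foxo3 fell by 15.9% and Txnip fell by 15.2%, which is small beside the distance between the genotypes in Foxo1 and Txnip. Irs1 went from 44.3 to 48.3, from 33.5 to 43.0, from 26.3 to 33.0 and from 28.2 to 32.4 normalised CPM (0.25, SE 0.056, edgeR adjusted p 0.00315). Irs2 (0.03, SE 0.049), Klf9 (-0.01, SE 0.056), Foxo4 (-0.01, SE 0.11) and Foxo6 (-0.0033, SE 0.079) did not pass, with adjusted p between 0.668 and 0.985. Of all 18220 genes tested, 12.0% rose and 15.9% fell, against 1 and 3 of the 8 members.

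These calls rest on the animal as a block, since nuclei of both kinds came from the same animals: without the block, the adjusted p was 1.0 for Foxo1, Txnip and Irs1 and 0.717 for Foxo3. Whether the difference itself depended on genotype was tested by the interaction, in which edgeR called 0 of 18220 genes (0%; smallest adjusted p 0.0730, 957 genes at an unadjusted p under 0.05) and DESeq2 called 1. For the members, the interaction was 0.04 for Foxo1 (SE 0.073, edgeR adjusted p 0.969), -0.08 for Txnip (SE 0.073, edgeR adjusted p 0.933) and 0.16 for Irs2 (SE 0.09, edgeR adjusted p 0.923).

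**Figure D4:**
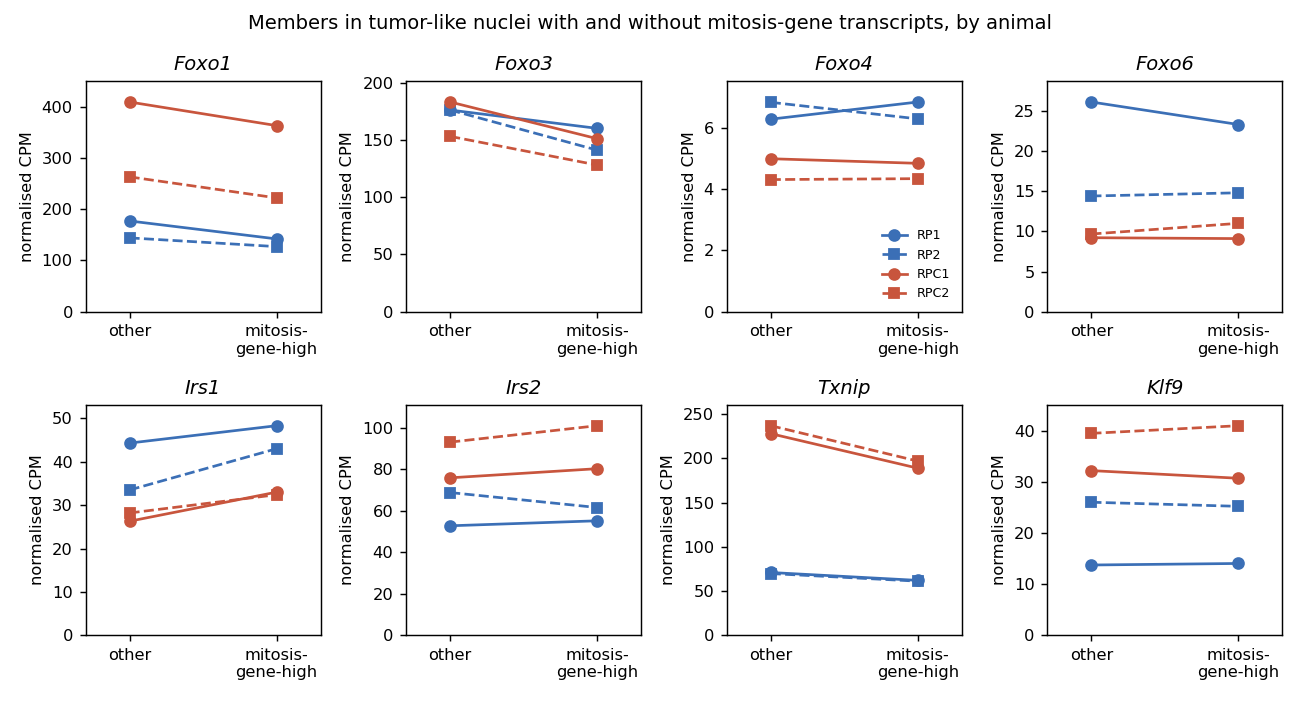
Normalised CPM of each member (y axes, from 0) in other and in mitosis-gene-high tumor-like nuclei, joined by animal (RP blue, RPC red, solid for animal 1 and dashed for animal 2). Lines of Foxo1, Foxo3 and Txnip fall and those of Irs1 rise in all 4 animals.

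Genes around the members in the pathway were described from lists, whose choice is stated in the processing notes. Of 27 measured genes of the insulin, PI3-kinase and AKT arm, 5 were higher and 6 lower in RPC tumor-like nuclei without overlap (median log2 fold change -0.09, all genes -0.01). Sgk3, which encodes a kinase related to AKT, had 19.2, 10.4, 5.65 and 5.02 normalised CPM (log2 fold change -1.47, SE 0.36), and Akt1 had 43.7, 56.0, 29.4 and 36.5 (-0.60, SE 0.21). Of 24 FOXO regulators, 7 were higher and 3 lower. Fbxw7, part of a ubiquitin ligase, had 137, 163, 202 and 218 normalised CPM (0.48, SE 0.15), and Prmt1, a methyltransferase that modifies FOXO1, had a log2 fold change of -0.49 (SE 0.21). Over all genes the shares were 24.8% and 25.6%, as given above.

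Of 28 measured FOXO targets, 11 were higher and 7 lower without overlap (median 0.17), against 24.8% and 25.6% of all genes. The same shares of all genes apply to the lists that follow here. Cdkn1b, which encodes the cell cycle inhibitor p27, had 60.1, 61.1, 99.8 and 77.9 normalised CPM (log2 fold change 0.55, SE 0.17), whereas the mitophagy gene Bnip3 had 66.7, 45.1, 44.6 and 19.7 (-0.80, SE 0.43). The known targets therefore did not all lie on 1 side. Of 16 genes of the thioredoxin and glucose-sensing list, 5 were higher and 7 lower (median -0.07). The glucose transporter gene Slc2a1 had 72.1, 36.6, 28.2 and 17.6 normalised CPM (-1.25, SE 0.40), opposite to Txnip, and Arrdc3, an arrestin-domain relative of Txnip, had 16.3, 24.6, 33.4 and 35.3 (0.75, SE 0.24). Of 12 glucocorticoid-responsive genes, the group to which Klf9 belongs, 4 were higher and 1 was lower (median 0.16). Zbtb16 had 349, 247, 670 and 405 normalised CPM (0.85, SE 0.31), Fkbp5 had a log2 fold change of 0.26 (SE 0.16), and Tsc22d3 had 27.8, 17.7, 14.5 and 12.8 (-0.73, SE 0.28). Of the 18 mitosis genes, 10 were higher and 0 were lower in RPC (median 0.23), with Mki67 at 727, 611, 964 and 1318 normalised CPM.

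Between mitosis-gene-high and other tumor-like nuclei, edgeR called genes of each list, against 12.0% of all genes that rose and 15.9% that fell. Of 27 genes of the insulin arm, 1 rose and 6 fell, among them the receptors Igf1r (log2 fold change -0.19, SE 0.037, edgeR adjusted p 0.00136) and Insr (-0.17, SE 0.037, edgeR adjusted p 0.00308). Of 24 FOXO regulators, 4 rose and 4 fell. Skp2, a cell cycle ubiquitin ligase subunit, rose by 0.40 (SE 0.049, edgeR adjusted p 2.36e-05), the nuclear export receptor gene Xpo1 rose by 0.39 (SE 0.039, edgeR adjusted p 2.90e-06), and Fbxw7 fell by 0.26 (SE 0.035, edgeR adjusted p 4.50e-05). Of 28 FOXO targets, 4 rose and 5 fell. Ccng2, which encodes cyclin G2, rose by 1.83 (SE 0.10, edgeR adjusted p 4.80e-09), and Fbxo32, a ubiquitin ligase gene of muscle wasting, fell by 0.61 (SE 0.049, edgeR adjusted p 2.50e-07). Of 16 thioredoxin and glucose-sensing genes, 2 rose and 8 fell, led by Hk2, which encodes hexokinase 2 (-0.64, SE 0.10, edgeR adjusted p 0.000307). Of 12 glucocorticoid-responsive genes, 1 rose and 5 fell, including Tsc22d3 (-0.53, edgeR adjusted p 5.32e-05). These 5 lists had medians between -0.19 and -0.01, against -0.02 for all genes. In endothelial-like nuclei, macrophage-like nuclei and the interaction, 0 genes of these lists were called by edgeR.

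Genes whose levels over classes and animals resembled Foxo1 and Txnip were sought by the Pearson correlation of log2(CPM + 5) over 16 sums (4 classes by 4 animals) among 7846 genes. The sums of an animal share a library, so the correlations are a description. Most like Foxo1 were Ralgapa1 (r = 0.895), Fzd6 (0.893), Vwf (0.889), Plxna2 (0.883) and Hdgfl3 (0.879). Most like Txnip were Apc (0.902), Bltp1 (0.896), Hdac8 (0.878), Srrm2 (0.873) and Phf20l1 (0.870). Foxo1 and Txnip had an r of 0.57 with each other, at rank 732 of the genes ordered by likeness to Foxo1, and Txnip and Klf9 had an r of 0.52.

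Neighbouring genes were read to see whether a member stood alone on its chromosome. Of the 5 tested protein-coding genes on each side of Txnip, which span 0.425 Mb, 0 were higher and 3 were lower in RPC tumor-like nuclei without overlap, with log2 fold changes from -0.78 to 0.13. Of all genes tested in tumor-like nuclei, 24.8% were higher and 25.6% were lower in RPC without overlap. Around Klf9 the log2 fold changes of the neighbours ranged from -0.59 to 0.62. No neighbour of Txnip or Klf9 had a larger absolute log2 fold change than the member. Several Txnip neighbours were scarce, such as H3c14 (0.562, 0.403, 0.459 and 0.498 normalised CPM). Gm15441, which runs antisense across Txnip, is outside this set. It had 3.62, 3.67, 7.33 and 6.96 CPM (log2 fold change 0.91, SE 0.26). Around Foxo1, 5 of 10 neighbours were higher and 1 was lower (median 0.30), compared with a median of 0.02 over chromosome 3. Maml3, the neighbour with the most transcripts, had 1450, 1173, 2514 and 1382 normalised CPM, with RPC1 highest as in Foxo1 but with overlap. Around Foxo6, 2 of 10 neighbours were lower (median -0.19), the largest difference being that of Edn2, which was hardly detected (0.862, 0.367, 0.0917 and 0.108 normalised CPM). RP1 exceeded RP2 not only for Foxo6 but also for its neighbours Rimkla (45.6 and 28.9), Foxj3 (236 and 139), Scmh1 (422 and 226) and Hivep3 (698 and 401 normalised CPM). DNA copy number was not measured.

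**Figure D5:**
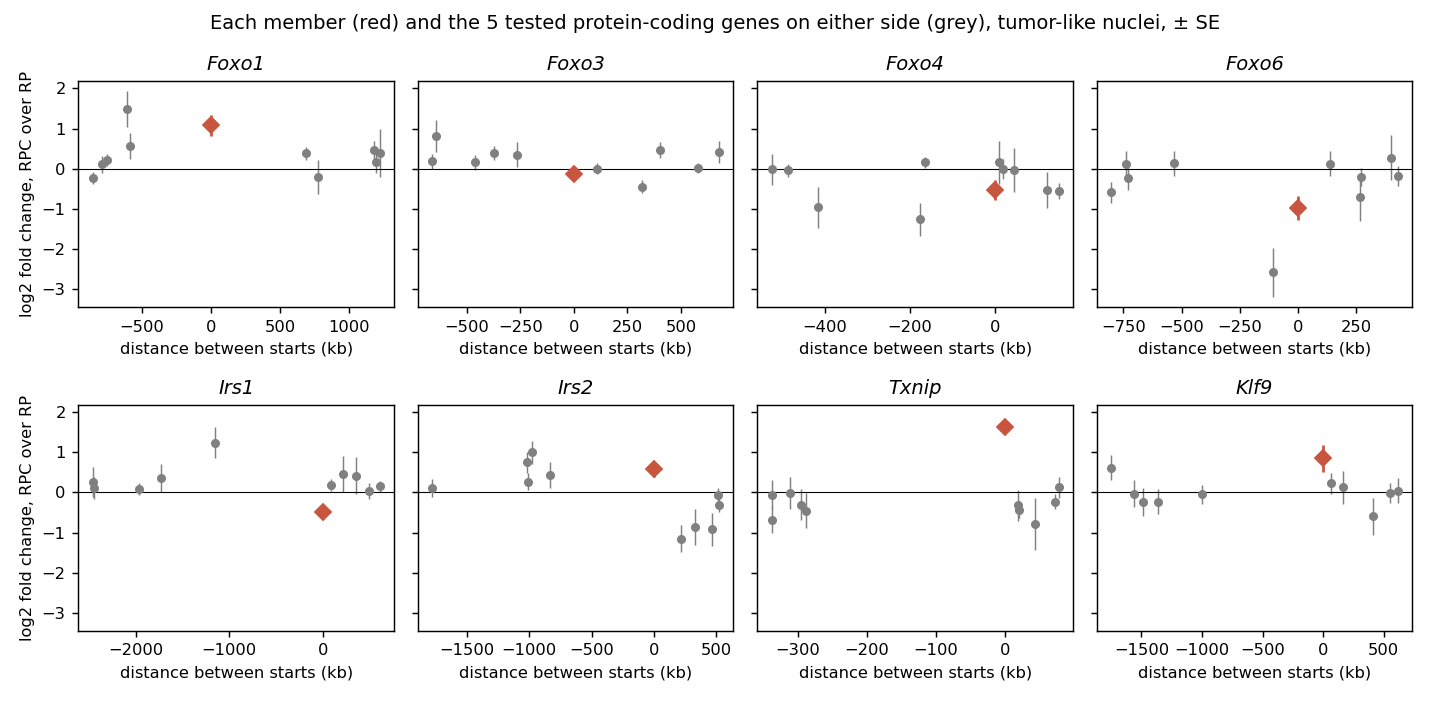
Log2 fold change of RPC over RP in tumor-like nuclei with its SE (y axis) for each member (red diamond) and the 5 tested protein-coding genes on either side (grey), against the distance between gene starts in kb (x axis). Txnip stands apart from these protein-coding neighbours, which lie between -0.78 and 0.13 and include scarce genes. The median of the neighbours of Foxo1 is 0.30.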

How the data were processed

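Transcripts were counted in single nuclei of lung tumors from 4 mice (split-pool barcoding). The authors aligned reads to GRCm39 with the Parse pipeline and deposited 1 matrix of counts of unique transcripts per animal, not normalized. The members and gene lists were chosen with earlier results of these data known, and the limits of the naming rule were set after the clusters had been seen.

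The thresholds of the study were applied to nuclei, which needed at least 300 counts, at most 10% mitochondrial counts and at most 12000 genes. Clusters were computed without the members (2000 variable genes, 20 principal components, 20 neighbours, Leiden resolution 0.4, leidenalg 0.10.2 under Python 3.11.15) and named by 13 marker lists. Sub-clusters of non-tumor names deeper than 2 times the median of their animal were set aside, and no doublet caller was run. Shallow clusters without their own markers among the leading genes stayed unnamed. Since the names were rebuilt here, they can differ from those of the study.

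Counts were summed per animal and class and tested over all genes by quasi-likelihood in edgeR 4.0.16 (R 4.3.3, TMM, filterByExpr, two-sided, Benjamini-Hochberg adjusted p under 0.05); DESeq2 1.42.0 was the alternative. For mitosis groups, all transcripts of a nucleus were summed with animal as a block. The SE was obtained from the fold change and the F statistic of each gene. The fits were tested on simulated counts. Named genes were the members, the targeted genes, and from each list the 3 largest differences without overlap (average log2 CPM of at least 3) or the 3 largest called; of these, those with the clearest values are printed. The neighbours named, and Gm15441, were chosen after their values were seen.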

Additional observations from a re-analysis of the deposited data

Results flagged for a closer look

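Foxo3 was noted because, with TMM scaling, its animals separated in opposite directions in 2 classes of nuclei. Comparing RPC with RP, it had a log2 fold change of 0.98 in endothelial-like nuclei, where both RPC animals lay above both RP animals, and -0.19 in macrophage- or monocyte-like nuclei, where both lay below. On plain CPM the animals overlapped in the latter (239 and 204 in RP, 203 and 218 in RPC). The difference between the classes was not tested. The endothelial value rests on 15 and 26 transcripts in the RP animals and 65 and 40 in the RPC animals. It was 0.17 when the deep sub-clusters that had been set aside were added. In RP2 and RPC2, neuroendocrine markers reached 84.3% to 89.6% of the tumor-like level in those deep nuclei.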

How the results depend on the processing

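Over 355 alternative values for the members in the comparisons, 313 kept their direction and side of the threshold, 4 lost the call, 29 changed sign and 9 moved by more than the spread between animals with the same sign. In tumor-like nuclei no member changed sign by a change of tool, scaling, filter, clustering or depth minimum, while Foxo3 ranged from -0.26 to 0.015 with each animal left out. The number of genes called by edgeR in tumor-like nuclei (0) became 654 with DESeq2 and 15 without the filter on low counts, and 0 to 3 with each animal left out. In endothelial-like nuclei it became 9 with DESeq2, 80 without the filter, 57 with the replicate block, 8 with the deep sub-clusters and 7 to 95 with each animal left out. In macrophage-like nuclei it became 6 with DESeq2, 81 without the filter, 1 with the deep sub-clusters and 0 to 68 with each animal left out. For the interaction it became 1, 94 and 0 to 93. The 5082 genes called between mitosis groups became 3342 with DESeq2, 298 without the animal block and 3990 to 4199 with each animal left out.

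The labels do not say whether the replicate numbers mark shared litters or days. Deviations of RP1 and RPC1 correlated at -0.052 across 20113 genes, which with so few animals cannot decide the question. The replicate block left 0 calls in tumor-like and macrophage-like nuclei and gave 57 in endothelial-like nuclei, and it changed no call of a member.

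With the deep sub-clusters, Foxo1 in endothelial-like nuclei was 0.55, and with each animal left out it ranged from -0.27 to 0.12. In macrophage-like nuclei Foxo1 ranged from -0.014 to 0.54 and Irs2 from -0.15 to 0.54. Between mitosis groups, Foxo4 was 0.01 without the filter and 0.00092 with at least 3 mitosis transcripts, Foxo6 was 0.018 without the filter, and Klf9 was 0.017 without the filter, 0.08 with at least 3 mitosis transcripts and 0.068 thinned to 500. With each animal left out, Foxo4 ranged from -0.043 to 0.035, Foxo6 from -0.056 to 0.075 and Klf9 from -0.039 to 0.028. In the interaction, Foxo4 was 0.023 without the filter, 0.086 with at least 3 mitosis transcripts and 0.44 thinned to 500, where Txnip was 0.077 and Irs1 -0.059. There, leaving out each animal gave -0.11 to 0.075 for Foxo3, -0.12 to 0.13 for Foxo4, -0.062 to 0.17 for Irs1 and -0.052 to 0.087 for Klf9.

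The RPC minus RP difference in detection after thinning, 11.9 points for Foxo1 and for Txnip, became 23.7 and 28.8 points without thinning. For Foxo1 it ranged from 6.33 to 17.5 points with each animal left out. For Txnip it was 5.94 points thinned to 500, 10.9 points at a Leiden resolution of 0.8, and 11.7 to 12 points when animals were left out. The causes of these changes were not tested. Depth limits Foxo4, Foxo6, Irs1 and Irs2 in endothelial-like nuclei and Foxo4, Foxo6 and Irs1 in macrophage-like nuclei, where they were not testable.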

Other observations

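Shallow nuclei that stayed unnamed (556 and 545 in RP, 373 and 554 in RPC) carried the members in other proportions than tumor-like nuclei of the same animals. Txnip had 126, 104, 575 and 472 CPM in them, above the tumor-like values of 63.4, 65.4, 209 and 208 CPM in each animal, while Foxo1 had 56.6, 64.8, 194 and 140 CPM, below the tumor-like values of 149, 134, 391 and 235 CPM. Their summed neuroendocrine markers were 86.7% to 115% of the tumor-like level. Rn18s-rs5 took on average 32.2%, 27.3%, 14.1% and 17.8% of the transcripts of the unnamed nuclei, against 9.19%, 7.08%, 2.42% and 4.44% in tumor-like nuclei, and its part in these levels was not tested. The difference between these nuclei and tumor-like nuclei was not tested, since clustering defined them.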
